A study of Mus musculus with 26 samples.

Results

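The genes described here are 46 genes of the mouse cell division cycle. They were chosen by symbol from a table of 55487 genes, and 46 of 46 were found through their Ensembl identifiers in the GENCODE M21 annotation of GRCm38. They fall into 18 genes of S phase, when DNA is copied, 25 genes of mitosis and the preparation for it, and 3 D cyclins, which link growth signals to entry into the cycle. All 46 passed the filter on low counts, which kept 17143 genes. The study measured RNA of macrophages taken from mouse lungs after lipopolysaccharide (LPS), a bacterial cell wall component, had been given into the trachea. BM-derived macrophages, which arise from bone marrow and enter the inflamed lung, were sampled on day 1 (5 libraries), day 3 (4 libraries) and day 7 (3 libraries). Resident alveolar macrophages (AM), which live in the air spaces of the healthy lung, were sampled with no LPS (day 0, 3 libraries) and on day 1 (4 libraries), day 3 (3 libraries) and day 7 (4 libraries). All BM groups received LPS, so no untreated BM group is part of the comparison. The labels give no strain, genotype, sex, age, sorting gate or number of animals per library; the word Young stands in the names of the day 0 libraries. Since nothing says that replicates came from separate animals, p-values here reflect spread between libraries, which may be technical.

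Dividing cells switch on their cell cycle genes in successive waves. E2F transcription factors, held back by the RB protein until D cyclins and their kinases release them, drive genes for DNA replication such as the MCM helicase, PCNA and the enzymes that make deoxynucleotides. The genes that build the spindle, pull chromosomes apart and divide the cell are held down by the DREAM complex in resting cells and switched on later by B-MYB and FOXM1, largely through a promoter element called CHR (cell cycle genes homology region) together with CCAAT boxes. Resident alveolar macrophages are known to renew themselves in the lung by slow division, driven by the growth factor GM-CSF, whereas recruited macrophages come from bone marrow precursors that divide before they leave the marrow.

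The promoters of 4 members are printed: Cenpa, which fell in AM day 1, Ccnb2, a mitosis gene whose groups did not overlap there although it was not called, Bub1b, the mitosis gene with an estimate above 0 in that comparison, and Mcm5, an S phase gene whose groups overlapped. They were read from RefSeq on GRCm38.p6, from 250 bases before to 50 bases after the annotated start, on the gene's strand, 5′ to 3′. Capitals mark CHR letters (TTTGAA or TTCGAA, either strand) and CCAAT (either strand, ATTGG on the other) in the 3 mitosis genes, and E2F letters (TTCCCGC or TTGGCGC, either strand) and CCAAT in the S phase gene Mcm5. Ccnb2 encodes cyclin B2 and lies at chr9:70421505-70421804 on the minus strand. Cenpa encodes the histone that marks centromeres (chr5:30666636-30666935, plus strand), Bub1b the spindle checkpoint kinase BUBR1 (chr2:118597961-118598260, plus strand) and Mcm5 a subunit of the replicative helicase (chr8:75109259-75109558, plus strand).
Ccnb2: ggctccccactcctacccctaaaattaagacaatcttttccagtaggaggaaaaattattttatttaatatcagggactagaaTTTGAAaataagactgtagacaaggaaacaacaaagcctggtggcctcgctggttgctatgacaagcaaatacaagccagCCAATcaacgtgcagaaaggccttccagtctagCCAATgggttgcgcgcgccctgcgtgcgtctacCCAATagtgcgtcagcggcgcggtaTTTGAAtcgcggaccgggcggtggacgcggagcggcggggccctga
Cenpa: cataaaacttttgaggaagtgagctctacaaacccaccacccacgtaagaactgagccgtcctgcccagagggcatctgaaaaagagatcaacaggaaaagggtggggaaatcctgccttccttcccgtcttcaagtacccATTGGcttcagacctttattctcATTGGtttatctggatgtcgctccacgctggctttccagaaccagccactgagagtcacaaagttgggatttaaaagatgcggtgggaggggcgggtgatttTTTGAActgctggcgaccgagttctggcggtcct
Bub1b: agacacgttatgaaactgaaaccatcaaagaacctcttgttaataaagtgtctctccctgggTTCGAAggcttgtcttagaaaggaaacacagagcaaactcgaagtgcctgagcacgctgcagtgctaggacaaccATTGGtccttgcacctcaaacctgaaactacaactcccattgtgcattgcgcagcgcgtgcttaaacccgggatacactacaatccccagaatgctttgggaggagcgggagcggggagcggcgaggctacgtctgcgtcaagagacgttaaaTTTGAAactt
Mcm5: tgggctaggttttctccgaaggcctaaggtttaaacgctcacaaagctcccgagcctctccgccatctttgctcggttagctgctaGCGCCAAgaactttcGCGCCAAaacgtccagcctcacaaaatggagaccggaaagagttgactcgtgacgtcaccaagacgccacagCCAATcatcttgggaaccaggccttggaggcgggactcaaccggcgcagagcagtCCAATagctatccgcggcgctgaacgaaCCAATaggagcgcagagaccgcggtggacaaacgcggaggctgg
Positions count from 0 at the annotated start. The CHR letters of Ccnb2 begin at -167 and 4 and its CCAAT boxes at -87, -54 and -21. Those of Cenpa begin at 16, with CCAAT at -109 and -86, and those of Bub1b at -188 and 40, with CCAAT at -113. The Mcm5 promoter has E2F letters at -164 and -149 and CCAAT at -77, -22 and 6.

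The same letters were counted in the promoters of all members that the table holds. The table held 40 promoters for 36 of the 46 members and none for the other 10 members. CHR letters stood in 17 of 21 mitosis promoters (81.0%) and in 3 of 17 S phase promoters (17.6%), against 19.2% of all 32851 promoters in the table. E2F letters stood in 3 of 21 mitosis promoters (14.3%) and in 8 of 17 S phase promoters (47.1%), against 6.81% of all promoters. CCAAT was frequent in both classes, in 90.5% of mitosis and 70.6% of S phase promoters, against 37.4% of all. CHR and CCAAT occurred in the same promoter in 81.0% of mitosis promoters and 17.6% of S phase promoters, against 7.52% of all. Between -60 and 40, 16 mitosis promoters and 1 S phase promoter held CHR letters, against 5.70% of all promoters. These are matches of letters, not shown sites, and no test was made of them.

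**Figure D1:**
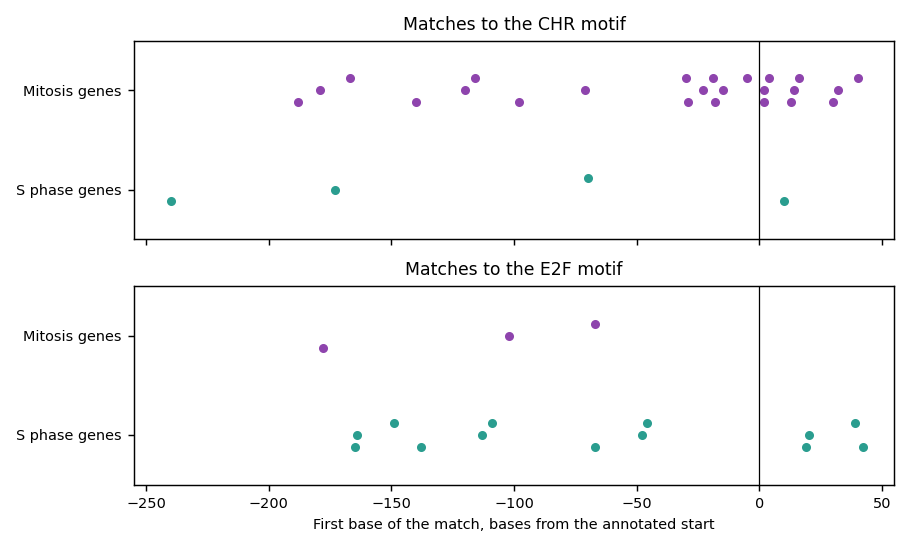
Positions of letter matches in the promoters of the mitosis and S phase members, in bases from the annotated start; each point is 1 match, spread up and down only to keep points apart. Of 24 CHR matches in mitosis promoters, 16 begin between -60 and 40, while E2F matches are more numerous in S phase promoters.

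The libraries hold 9176202 to 80816742 counts, and levels are given as CPM (counts per 1000000, with library sizes scaled by edgeR's TMM factors). AM day 0 was the deepest group, with 35780951 to 80816742 counts, against 9176202 to 15073686 in AM day 1 and at most 27513205 in the other groups. A comparison with AM day 0 is thus also one between depths. Summed markers of alveolar macrophages (9 genes, among them Siglecf, Pparg and Car4) came to 975 to 4142 CPM in BM libraries of days 1 and 3, 2459 to 14790 CPM in BM day 7 and 16038 to 30984 CPM in AM libraries, and summed monocyte and recruited macrophage markers (7 genes) to 1798 to 4776 CPM in BM libraries, and, for AM, to 62.4 to 98.5 CPM without LPS, 418 to 634 CPM after 1 day, 950 to 2420 CPM after 3 days and 79.3 to 168 CPM after 7 days. BM day 3 replicate 1 and BM day 1 replicate 3 stand apart from their groups, with median correlations of 0.734 and 0.830 to the other libraries, and the first holds 27530 CPM of endothelial and fibroblast markers. Genes with at least 10 counts in AM libraries numbered 15908 to 18563 on day 0, 10711 to 12978 on day 1, 12890 to 13475 on day 3 and 12511 to 14677 on day 7. The library names carry 3 prefixes, 1 for AM day 0, 1 for BM day 1 and 1 for all other groups, so a comparison with AM day 0 or BM day 1 is also one between prefixes and cell state and prefix cannot be told apart. Summed Y-linked RNA was at most 4.09 CPM in AM day 7 and BM day 7, 7.75 to 38.4 CPM in BM day 1 and 146 to 227 CPM in AM days 0, 1 and 3, while the BM day 3 libraries had 0.165, 0.0479, 167 and 169 CPM, split within the group. Xist RNA was 472 to 910 CPM in BM day 1, 0 to 269 CPM in BM day 3, 374 to 524 CPM in BM day 7, 0 to 144 CPM in AM days 0, 1 and 3 and 280 to 328 CPM in AM day 7. The comparisons of AM day 7 with earlier days, of BM day 1 with AM day 1 and those with BM day 3 are thus also between libraries that differ in Y-linked RNA; its part was not tested. The counting's strand setting is not given in the sources used here; exons of 16 members overlap a gene on the opposite strand, most of all Gins2 (67.3% of its exon bases), Kif20a (29.3%), Ccnd1 (23.4%) and Ube2c (22.8%), whose counts are uncertain to that extent.

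Both classes were detected in every group, and among the AM groups the mitosis genes spanned a wider range than the S phase genes. Summed RNA of the 25 mitosis genes averaged 450 ± 191 CPM in BM day 1, 554 ± 80.9 in BM day 3, 401 ± 51.1 in BM day 7, 859 ± 142 in AM day 0, 337 ± 64.9 in AM day 1, 899 ± 257 in AM day 3 and 652 ± 141 in AM day 7 (SD, n = 5, 4, 3, 3, 4, 3 and 4). Among the AM groups, resident cells had their lowest sum on day 1, at 260 to 418 CPM, with no overlap with the 703 to 982 CPM of day 0 or the 605 to 1080 CPM of day 3. Summed RNA of the 18 S phase genes averaged 591 ± 237 CPM in BM day 1, 525 ± 97.1 in BM day 3, 431 ± 31.3 in BM day 7, 865 ± 57.8 in AM day 0, 625 ± 90.2 in AM day 1, 695 ± 82.1 in AM day 3 and 544 ± 59.0 in AM day 7. The AM groups of days 1, 3 and 7 all lay below the 822 to 931 CPM of AM day 0, and those of days 1 and 3 overlapped. The sums are a description with no test, and in bulk RNA fewer dividing cells and less of these RNAs per cell cannot be told apart.

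The ratio of summed mitosis to summed S phase RNA was lowest in AM day 1 among the AM groups. In AM it was 0.855 to 1.06 on day 0, 0.421 to 0.668 on day 1, 0.962 to 1.51 on day 3 and 1.02 to 1.34 on day 7. BM libraries had 0.532 to 1.08 on day 1, 0.883 to 1.33 on day 3 and 0.861 to 0.963 on day 7. The sums rest partly on Mki67 and Bub1b, which lay high in AM day 1 libraries where the others were low. In AM the median mitosis gene had 18.3 to 24.1 CPM on day 0, 0 to 3.90 CPM on day 1, 12.3 to 28.2 CPM on day 3 and 9.995 to 18.9 CPM on day 7. In BM libraries it had 0 to 13.5 CPM on day 1, 0.0825 to 17.9 CPM on day 3 and 7.62 to 10.4 CPM on day 7.

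**Figure D2:**
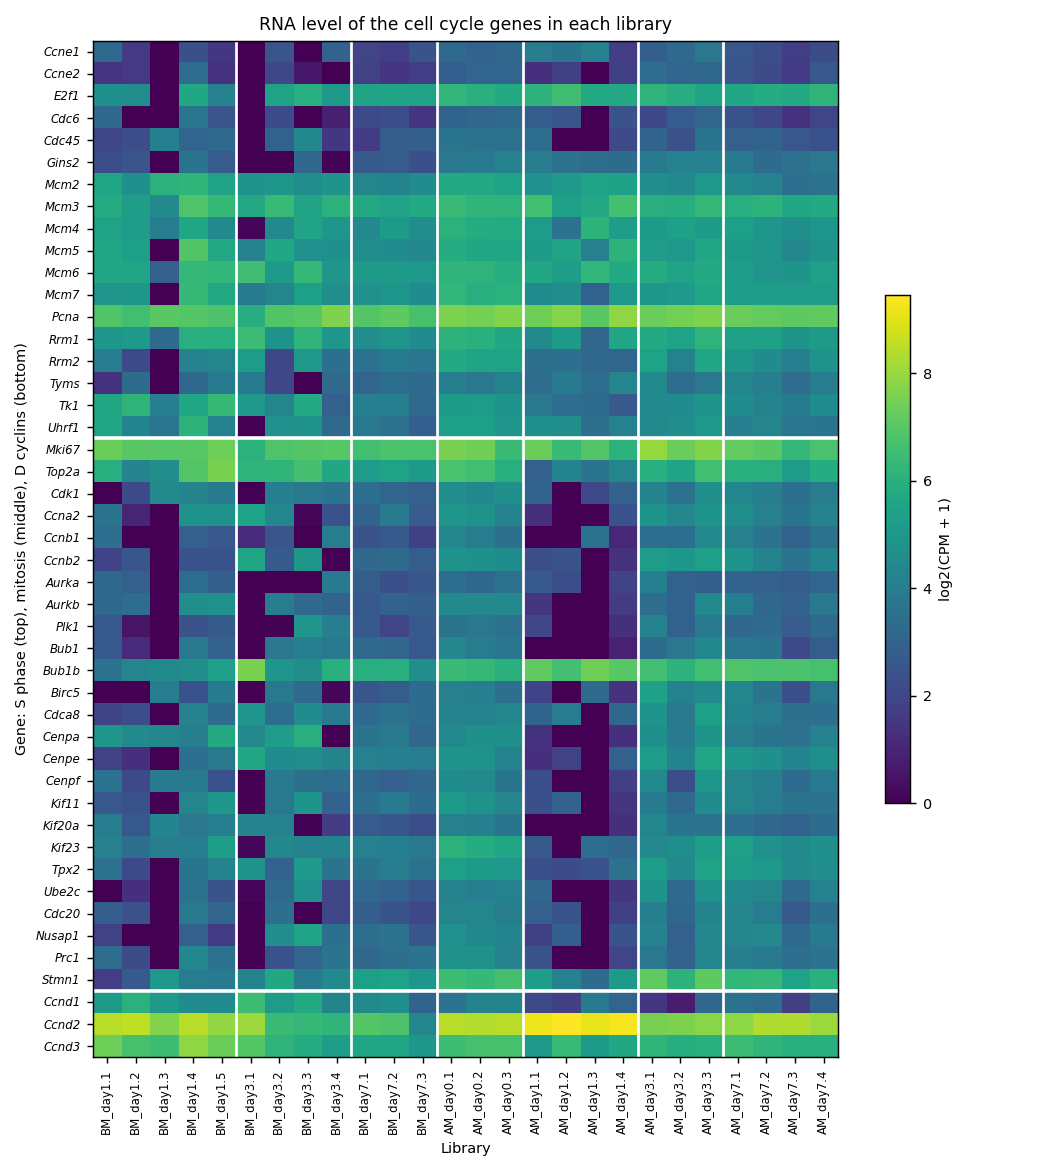
RNA level, as log2(CPM + 1), of the 46 genes (down) in the 26 libraries (across; BM groups left of AM groups), with S phase genes at the top, mitosis genes in the middle and D cyclins at the bottom. The AM day 1 libraries are dark across most mitosis genes, BM day 1 replicate 3 and BM day 3 replicate 1 have many genes at 0, and Pcna, Mki67 and Ccnd2 are bright in most libraries.

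**Figure D3:**
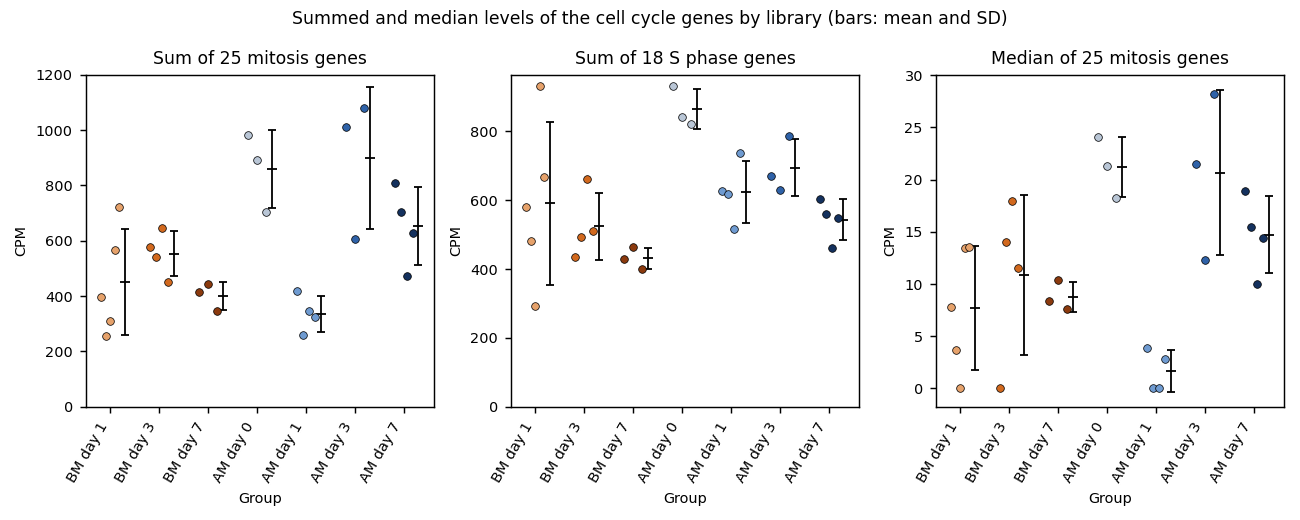
Summed CPM of the 25 mitosis genes, summed CPM of the 18 S phase genes and median CPM of the 25 mitosis genes, by group; points are libraries and bars are mean and SD. AM day 1 sits at 260 to 418 CPM of summed mitosis RNA and at 0 to 3.90 CPM for the median mitosis gene, below every AM library of days 0, 3 and 7.

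In resident macrophages 1 day after LPS, 5 of 25 mitosis genes fell relative to untreated cells. At an adjusted p under 0.05 (edgeR quasi-likelihood F test, Benjamini-Hochberg over the 17143 genes), 6 members fell and none rose, 5 of them mitosis genes and 1 an S phase gene, where 3.06% of all genes fell, 3.22% rose and 6.28% changed in either direction. The fitted estimate was below 0 for 24 of 25 mitosis genes and 16 of 18 S phase genes, against 58.0% of all genes. The median log2 fold change was -2.80 for mitosis genes, -0.53 for S phase genes and -0.20 for all genes. Every AM day 1 library lay below every AM day 0 library for 22 of 25 mitosis genes and 9 of 18 S phase genes, against 21.2% of all genes.

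The enzyme and kinetochore genes give the clearest cases. Top2a, the topoisomerase that untangles sister chromosomes (ENSMUSG00000020914, chromosome 11, 98992943 to 99024189, minus strand, GRCm38), had 6.40, 18.3, 11.5 and 18.9 CPM in AM day 1, against 106, 95.0 and 60.2 CPM in AM day 0. Even the lowest untreated library had more than any day 1 library. Its log2 fold change was -2.66 ± 0.54 (SE; adjusted p = 0.0018), and this call held under all 35 alternatives run for it. Cenpa, whose promoter is printed above, had 1.60, 0, 0 and 1.46 CPM in AM day 1, against 21.9, 25.6 and 24.99 CPM in AM day 0. A pair of day 1 libraries had no count of it, and the change was -4.94 ± 1.24 on the log2 scale (adjusted p = 0.013).

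Bub1, a kinase of the spindle checkpoint, had 0, 0, 0 and 0.847 CPM in AM day 1, against 19.9, 14.9 and 12.03 CPM in AM day 0. Its log2 fold change was -6.14 ± 1.70 (adjusted p = 0.026), an estimate that rests on the counts of 1 library, replicate 4, on day 1. Kif20a, a kinesin of the dividing cell's midzone, had 0, 0, 0 and 1.46 CPM in AM day 1, against 16.3, 15.8 and 11.4 CPM in AM day 0. It too was seen on day 1 in replicate 4 alone, with a change of -5.27 ± 1.42 (adjusted p = 0.022). Kif23, a kinesin needed for cytokinesis, had 5.29, 0, 9.58 and 7.62 CPM in AM day 1, against 66.0, 56.4 and 46.8 CPM in AM day 0. The groups were well apart, and its change was -3.33 ± 1.00 (adjusted p = 0.043).

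Other mitosis genes had estimates of like size that did not pass the threshold. Aurkb, the kinase of the chromosomal passenger complex, had an estimate of -4.36 ± 1.51 (adjusted p = 0.088). Ccna2, cyclin A2, had -4.13 ± 1.53 (adjusted p = 0.11), and its exons overlap Exosc9 on the other strand. Ccnb2, with CHR letters at its start, had 3.90, 4.41, 0 and 1.54 CPM in AM day 1, against 27.9, 25.6 and 23.5 CPM in AM day 0. The groups did not overlap, but the estimate of -3.37 had an adjusted p of 0.13. Stmn1, which loosens microtubules, had 37.4, 17.1, 8.96 and 34.7 CPM in AM day 1, against 90.1, 79.5 and 101 CPM in AM day 0. It too showed no overlap, at -1.87 with an adjusted p of 0.053.

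Among these calls that of Cenpa was lost in 1 of 35 alternatives, Bub1 in 5, Kif20a in 7 and Kif23 in 19. The count of 6 was 2 without AM day 0 replicate 1 or 2 or without AM day 1 replicate 1 or 3, 3 without AM day 1 replicate 2, and 12 without BM day 1 replicate 3 or BM day 3 replicate 1, which belong to neither compared group; of all genes 8.35% and 10.1% were then called. Without both of those BM libraries 18 members fell, 14 of them mitosis and 3 S phase genes, where 7.97% of all genes fell. The share of all genes called is not given here for the fits that gave 2 or 3.

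Because the day 1 libraries detected fewer genes, the mitosis genes were set beside all genes of the same level in AM day 0. Among the 3050 genes with 10 to 30 CPM in AM day 0, the median log2 fold change was -0.08, every day 1 library was lower for 17.9%, and 0.82% to 10.2% were at 0 in a day 1 library. The 18 mitosis members in that range had a median of -3.28, every day 1 library was lower for 17 of them (94.4%), and 0% to 83.3% were at 0 in a day 1 library. The 3 S phase members in that range had a median of -0.40, and every day 1 library was lower for 1 of them (33.3%). Among the 3781 genes with 30 to 110 CPM the median was -0.10, against -2.66 for 5 mitosis members and -0.62 for 11 S phase members there. Every day 1 library was lower for 19.8% of those genes, 4 of the 5 mitosis members (80.0%) and 6 of the 11 S phase members (54.5%). By replicate, 3, 13, 16 and 0 of the 25 mitosis genes were at 0 in AM day 1, so the share of zeros differs between libraries while all 4 lie low.

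**Figure D4:**
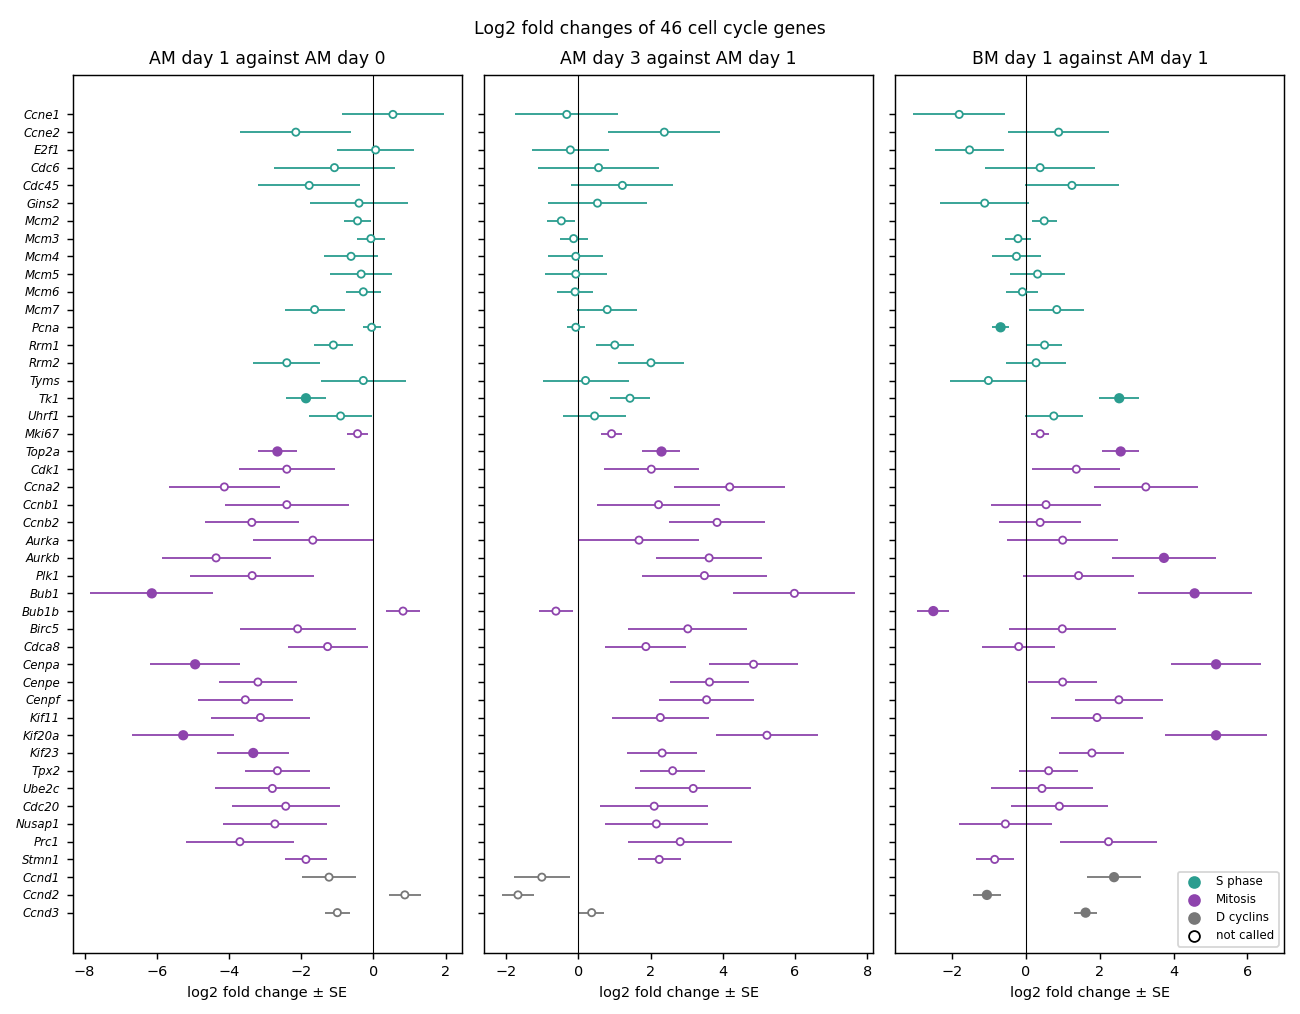
Log2 fold change and SE of each of the 46 genes in AM day 1 against AM day 0, AM day 3 against AM day 1 and BM day 1 against AM day 1; colour gives the class and filled points passed an adjusted p under 0.05. The mitosis genes lie left of 0 in the first panel, with a median of -2.80, and right of 0 in the second, with a median of 2.61, apart from Bub1b.

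Among S phase genes, only Tk1 passed the test in this comparison. Tk1, thymidine kinase, which salvages thymidine for DNA synthesis, had 12.9, 9.29, 8.96 and 5.23 CPM in AM day 1, against 34.2, 36.8 and 28.9 CPM in AM day 0. The groups did not overlap and the change was -1.87 ± 0.56 (adjusted p = 0.044), a call lost in 22 of 35 alternatives, among them leaving out any compared library. Rrm2, the regulated subunit of ribonucleotide reductase, had 10.2, 10.1, 7.91 and 7.54 CPM in AM day 1, against 53.7, 44.8 and 42.8 CPM in AM day 0. It did not overlap either, with an estimate of -2.40 ± 0.93 and an adjusted p of 0.13. The helicase subunit Mcm5 had 34.7, 44.8, 16.6 and 69.0 CPM in AM day 1, against 56.3, 50.04 and 49.96 CPM in AM day 0. Its day 1 libraries lay on both sides of the untreated ones, and its estimate was -0.34 ± 0.85 (adjusted p = 0.93).

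Pcna, the sliding clamp of DNA polymerase and a protein of DNA repair, had 163, 212, 132 and 233 CPM in AM day 1, against 193, 176 and 206 CPM in AM day 0. The groups overlapped and the estimate was -0.05 ± 0.25 (adjusted p = 0.98). Per kilobase of exon it was the most abundant of the 46 genes in AM day 0, at 79.8 CPM per kilobase, ahead of Stmn1 at 46.9, Ccnd2 at 36.5 and E2f1 at 20.4.

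Mki67 and Bub1b did not share the low level of the other mitosis genes. Mki67, the gene of the proliferation marker Ki-67 (ENSMUSG00000031004, chromosome 7, 135689784 to 135716361, minus strand), had 161, 81.5, 121 and 67.6 CPM in AM day 1, against 181, 171 and 86.1 CPM in AM day 0. The groups overlapped, with an estimate of -0.44 ± 0.29 (adjusted p = 0.44). Bub1b (ENSMUSG00000040084, chromosome 2, 118598211 to 118641591, plus strand) had 139, 97.1, 167 and 128 CPM in AM day 1, against 86.1, 77.1 and 63.3 CPM in AM day 0. Each day 1 library was above each untreated one, while the estimate of 0.82 ± 0.48 did not pass (adjusted p = 0.36). Bub1b was the only one of the 25 mitosis genes with an estimate above 0, and its exons overlap no other annotated gene.

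Summed markers of other cells differed in this comparison. The 10 T and NK cell markers summed to 3.77 to 26.1 CPM in AM day 1, with Cd3d, Cd8a and Klrb1c at 0, against 36.1 to 69.3 CPM in AM day 0. The 6 B and plasma cell markers summed to 1.31 to 19.5 CPM in AM day 1, against 76.4 to 91.3 CPM in AM day 0. In AM day 3 the T and NK markers summed to 1.98 to 5.83 CPM and the B and plasma cell markers to 5.31 to 9.68 CPM. The 8 lung epithelium markers summed to 59.2 to 107 CPM in AM day 1, against 249 to 370 CPM in AM day 0, and the 13 neutrophil markers to 95.6 to 573 CPM, against 42.6 to 54.4 CPM. The part of these cells in the day 1 result was not tested.

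On day 3 most mitosis RNAs of resident cells lay above their day 1 level, in a comparison that stays within 1 library-name prefix. Top2a alone passed the test and rose, where 0.624% of all genes rose and 0.834% changed in either direction. It had 60.7, 45.0 and 96.1 CPM in AM day 3, against 6.40, 18.3, 11.5 and 18.9 CPM in AM day 1. The lowest day 3 library was above the highest day 1 library, and the change was 2.29 ± 0.53 (adjusted p = 0.036), though the call was lost when any 1 of the 7 compared libraries was left out. This comparison shares the AM day 1 libraries with that of AM day 1 against AM day 0, so the results of both are not independent. The estimate was below 0 for 1 of 25 mitosis genes, against 42.9% of all genes, and every AM day 3 library was above every AM day 1 library for 20 of the 25, against 8.20% of all genes. For S phase genes that was so in 3 of 18. In the median the log2 fold change was 2.61 for mitosis genes, 0.33 for S phase genes and 0.04 for all genes. DESeq2 called 11 members, 10 of them higher, where it called 4.92% of all genes, and without BM day 1 replicate 3 and BM day 3 replicate 1 the edgeR count was 12, 11 of them higher, where 2.72% of all genes were called. Leaving out BM day 1 replicate 3 alone gave 6, and BM day 3 replicate 1 alone gave 5. The share of all genes called in those fits is not given here, so these counts are not by themselves a result about the members. The 7 monocyte and recruited macrophage markers summed to 950 to 2420 CPM in AM day 3, against 418 to 634 CPM in AM day 1, and the part of such cells in this result was not tested.

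Cenpa had 25.8, 13.6 and 28.5 CPM in AM day 3, against 1.60, 0, 0 and 1.46 CPM in AM day 1, with an estimate of 4.85 that just missed the threshold (adjusted p = 0.062). Ccnb2 had 36.2, 30.5 and 39.6 CPM in AM day 3, against 3.90, 4.41, 0 and 1.54 CPM in AM day 1. These groups were widely separated too, yet the estimate of 3.84 had an adjusted p of 0.23. Mki67 had 248, 155 and 208 CPM in AM day 3, against 161, 81.5, 121 and 67.6 CPM in AM day 1, which overlapped (0.92 ± 0.29, adjusted p = 0.16). Bub1b, again opposite, had 95.3, 69.1 and 95.7 CPM in AM day 3, against 139, 97.1, 167 and 128 CPM in AM day 1.

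Against untreated cells, AM day 3 gave 0 called members by edgeR, where 2.51% of all genes were called. DESeq2 also called 0 members (5.47% of all genes), and 2 had an unadjusted p under 0.05 (10.7% of all genes). The median log2 fold change was -0.04 for mitosis genes, -0.38 for S phase genes and -0.07 for all genes. Top2a had 60.7, 45.0 and 96.1 CPM in AM day 3, against 106, 95.0 and 60.2 CPM in AM day 0. The libraries of both days interleaved, with an estimate of -0.37 ± 0.56 (adjusted p = 1).

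On day 7, 1 of the 18 S phase genes of resident cells fell relative to untreated cells. Mcm2, a subunit of the replicative helicase (ENSMUSG00000002870, chromosome 6, 88883474 to 88898780, minus strand), had 21.8, 17.5, 10.1 and 10.9 CPM in AM day 7, against 52.1, 51.0 and 44.0 CPM in AM day 0. It fell by 1.70 ± 0.38 on the log2 scale with no overlap (adjusted p = 0.027), where 0.268% of all genes fell and 0.677% changed, and the call was lost in 9 of 35 alternatives. Those included leaving out any AM day 0 library, AM day 7 replicate 2, 3 or 4, or BM day 7 replicate 2. The estimate was below 0 for 18 of 18 S phase genes, against 52.9% of all genes, and 15 of 18 showed no overlap, against 14.7% of all genes. The median log2 fold change was -0.89 for S phase genes, -0.51 for mitosis genes and -0.04 for all genes. A fit to these groups alone called 22 members, 21 of them lower, of which 13 were S phase and 8 mitosis genes, where it called 16.9% of all genes.

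Mcm5 had 34.6, 29.5, 19.6 and 27.1 CPM in AM day 7, against 56.3, 50.04 and 49.96 CPM in AM day 0. Pcna had 154, 146, 137 and 140 CPM in AM day 7, against 193, 176 and 206 CPM in AM day 0. Neither overlapped, and neither passed, with estimates of -0.91 ± 0.85 and -0.40 ± 0.25 (adjusted p = 1 for both). The step between days 3 and 7 gave 0 called members by edgeR, where 1.59% of all genes were called, and 0 by DESeq2 (3.73% of all genes), with 2 at an unadjusted p under 0.05 (8.03% of all genes). Its median log2 fold changes were -0.50 for S phase genes and -0.40 for mitosis genes. Mki67 had 143, 132, 77.8 and 106 CPM in AM day 7, against 248, 155 and 208 CPM in AM day 3, which did not overlap (-0.83 ± 0.28, adjusted p = 0.25). These comparisons also set libraries of different Y-linked RNA against each other. The B and plasma cell markers summed to 6.44 to 14.0 CPM in AM day 7, against 76.4 to 91.3 CPM in AM day 0, and the T and NK cell markers to 1.12 to 5.78 CPM, against 36.1 to 69.3 CPM. Their part was not tested.

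Recruited macrophages of day 1 had more RNA of several mitosis genes than resident ones of that day, and less of Bub1b and Pcna. Of the 46, 11 were called, 8 higher and 3 lower, or 11 of 46 where 29.0% of all genes were called (15.2% higher and 13.8% lower), so the members' share is below the background. The median log2 fold change was 1.00 for mitosis genes, 0.30 for S phase genes and 0.06 for all genes. The comparison is also one between library-name prefixes, and it shares the AM day 1 libraries with those above. Of the 11 calls, those of Top2a, Cenpa, Kif20a, Tk1, Ccnd3 and Bub1b held under all 34 alternatives run for them. Without BM day 1 replicate 3 and BM day 3 replicate 1, 19 members were called, 14 of them higher, where 40.4% of all genes were called. Leaving out AM day 1 replicate 2 gave 6. The share of all genes called in that fit is not given here. The 13 neutrophil markers summed to 522 to 1248 CPM in BM day 1, against 95.6 to 573 CPM in AM day 1, and the 9 endothelial and fibroblast markers to 200 to 430 CPM, against 21.7 to 74.2 CPM, and their part in these differences was not tested.

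Cenpa had 30.4, 21.8, 19.2, 15.5 and 52.6 CPM in BM day 1, against 1.60, 0, 0 and 1.46 CPM in AM day 1. Every BM library was far above every AM library (5.15 ± 1.21, adjusted p = 0.0023). Kif20a had 15.3, 5.01, 18.3, 12.4 and 15.5 CPM in BM day 1, against 0, 0, 0 and 1.46 CPM in AM day 1, again with no overlap (5.15 ± 1.37, adjusted p = 0.0064). Tk1 had 49.7, 69.2, 15.4, 47.7 and 80.6 CPM in BM day 1, against 12.9, 9.29, 8.96 and 5.23 CPM in AM day 1. The lowest BM library was just above the highest AM library (2.53 ± 0.54, adjusted p = 0.00079).

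Top2a had 60.2, 17.9, 24.5, 120 and 188 CPM in BM day 1, against 6.40, 18.3, 11.5 and 18.9 CPM in AM day 1. It rose by 2.57 ± 0.50 (adjusted p = 0.00034), although 1 BM library lay within the AM range. Bub1b had 10.9, 18.8, 22.1, 25.4 and 39.98 CPM in BM day 1, against 139, 97.1, 167 and 128 CPM in AM day 1. It was lower in every BM library (-2.50 ± 0.43, adjusted p = 7e-05). Pcna had 117, 94.6, 130, 123 and 111 CPM in BM day 1, against 163, 212, 132 and 233 CPM in AM day 1, where the nearest libraries of both groups almost met (-0.68 ± 0.22, adjusted p = 0.022, lost in 6 of 34 alternatives).

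Bub1 had 5.07, 1.18, 0, 13 and 6.86 CPM in BM day 1, against 0, 0, 0 and 0.847 CPM in AM day 1, with overlap at BM day 1 replicate 3 (4.57 ± 1.54, adjusted p = 0.028, lost in 5 of 34 alternatives). Aurkb rose by 3.74 ± 1.41 (adjusted p = 0.047), a call lost in 23 of 34 alternatives. Ccnb2, Stmn1 and Mki67 were not called here. Ccnb2 had 2.77, 4.79, 0, 4.26 and 4.33 CPM in BM day 1, against 3.90, 4.41, 0 and 1.54 CPM in AM day 1, so both groups were low. Stmn1 had 2.31, 5.28, 32.3, 14.8 and 14.1 CPM in BM day 1, against 37.4, 17.1, 8.96 and 34.7 CPM in AM day 1. Mki67 had 162, 126, 127, 127 and 164 CPM in BM day 1, against 161, 81.5, 121 and 67.6 CPM in AM day 1, and its estimate of 0.39 ± 0.25 did not pass (adjusted p = 0.26). In BM day 1 replicate 3, 15 mitosis and 9 S phase genes were at 0, Mcm5 among them, while Cenpa and Kif20a were not.

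Few members were called between days in the recruited cells. BM day 3 against BM day 1 gave 3 called members, where 25.9% of all genes were called. Bub1b had 188, 30.1, 24.8 and 63.5 CPM in BM day 3, against 10.9, 18.8, 22.1, 25.4 and 39.98 CPM in BM day 1. The rise of 1.71 ± 0.42 (adjusted p = 0.0052) rests on BM day 3 replicate 1, since the call was lost without that library. Without BM day 1 replicate 3 the number of called members was 5, and the share of all genes called in that fit is not given here. Cyclins D2 and D3, the other calls, are described below. Median log2 fold changes were 0.10 for mitosis genes and -0.30 for S phase genes. BM day 7 against BM day 3 gave 0 called members by edgeR, where 3.98% of all genes were called, and 0 by DESeq2 (8.73% of all genes), with 1 at an unadjusted p under 0.05 (21.2% of all genes). Top2a had 36.2, 43.5 and 34.4 CPM in BM day 7, against 70.1, 71.9, 100 and 50.5 CPM in BM day 3. Every day 7 library was lower, and the estimate of -0.94 ± 0.54 did not pass (adjusted p = 0.33).

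On day 3, 2 of the 46 members were called between recruited and resident cells, Stmn1 and Ccnd1. That share is near the 3.98% of all genes called. Stmn1 had 17.9, 50.3, 13.6 and 21.9 CPM in BM day 3, against 142, 68.9 and 137 CPM in AM day 3. It was lower in every BM library (-2.16 ± 0.59, adjusted p = 0.036), a call lost without AM day 3 replicate 1 or 3 or BM day 3 replicate 1, 3 or 4. Mitosis genes had a median log2 fold change of -0.76, against -0.62 for S phase genes and -0.07 for all genes. Mki67 had 65.8, 114, 120 and 126 CPM in BM day 3, against 248, 155 and 208 CPM in AM day 3, with no overlap (-0.94 ± 0.29, adjusted p = 0.060).

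On day 7 the mitosis estimates of BM against AM were all on the low side, with 1 called member, the D cyclin Ccnd2, where 1.77% of all genes were called and 0.286% fell. The estimate was below 0 for 25 of 25 mitosis genes and 17 of 18 S phase genes, against 46.8% of all genes. Every BM library was below every AM library for 12 of 25 mitosis genes, against 14.2% of all genes. The median log2 fold change was -0.85 for mitosis genes, -0.34 for S phase genes and 0.03 for all genes. A fit to these groups alone called 17 members, all lower, 12 of them mitosis genes, where 9.22% of all genes fell. Bub1b had 61.1, 59.3 and 24.7 CPM in BM day 7, against 114, 107, 108 and 103 CPM in AM day 7. The lowest value is from BM day 7 replicate 3, which had 2459 CPM of alveolar macrophage markers and 410 CPM of neutrophil markers, where the other 2 libraries had 14008 and 14790 CPM and 133 and 122 CPM. Stmn1 had 40.8, 43.7 and 30.6 CPM in BM day 7, against 76.5, 78.2, 44.0 and 63.1 CPM in AM day 7, and here the groups nearly met. The test of whether the change between days 3 and 7 differed between cell types called 0 members by edgeR, where 0.362% of all genes were called, and 0 by DESeq2 (3.50% of all genes), with 1 at an unadjusted p under 0.05 (11.6% of all genes).

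None of the 3 D cyclins was called between AM groups, and each was called in a comparison within BM or of BM with AM. Ccnd2, cyclin D2 (ENSMUSG00000000184, chromosome 6, 127125162 to 127152193, minus strand), had 349, 332 and 350 CPM in AM day 0, 595, 703, 563 and 650 CPM in AM day 1, 182, 192 and 219 CPM in AM day 3 and 227, 324, 321 and 263 CPM in AM day 7. Day 1 was highest and day 3 lowest, with no overlap between these groups. The estimate for AM day 1 against AM day 0 was 0.87 ± 0.44 (adjusted p = 0.26) and for AM day 3 against AM day 1 it was -1.67 ± 0.45 (adjusted p = 0.095; 0.0036 by DESeq2). In BM it had 349, 371, 202, 349 and 243 CPM on day 1, 262, 86.8, 77.7 and 72.2 CPM on day 3 and 123, 113 and 19.1 CPM on day 7. It fell in BM day 3 against BM day 1 (-1.28 ± 0.39, adjusted p = 0.021), though BM day 3 replicate 1 stayed at the day 1 level and the call was lost without any of the other 3 day 3 libraries.

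Ccnd2 was lower in recruited than in resident cells on day 1 (-1.05 ± 0.37, adjusted p = 0.039) and on day 7 (-1.74 ± 0.45, adjusted p = 0.047), without overlap on either day. The day 1 call was lost in 10 of 34 alternatives. The day 7 call was lost in 24 of 36 alternatives, among them leaving out any BM day 7 or AM day 7 library.

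Ccnd1, cyclin D1 (ENSMUSG00000070348, chromosome 7, 144929931 to 144939925, minus strand), was higher in recruited than in resident cells on days 1 and 3. It had 34.4, 64.3, 33.3, 22.5 and 22.99 CPM in BM day 1, against 3.20, 2.48, 14.0 and 7.54 CPM in AM day 1. On day 3 it had 90.4, 35.5, 53.5 and 18.4 CPM in BM, against 1.79, 0.631 and 7.74 CPM in AM. The groups did not overlap on either day, with changes of 2.39 ± 0.72 on day 1 (adjusted p = 0.015) and 3.87 ± 0.89 on day 3 (adjusted p = 0.013). The day 1 call was lost without AM day 1 replicate 2, and the day 3 call without AM day 3 replicate 1 or 2. On day 7 it had 22.1, 25.3 and 7.11 CPM in BM, against 10.8, 9.49, 2.44 and 7.21 CPM in AM, which overlapped (1.28 ± 0.75, adjusted p = 0.83). It was also the gene with an unadjusted p under 0.05 in the test of the difference between cell types, at -2.59 ± 1.11 (adjusted p = 0.34).

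Ccnd3, cyclin D3 (ENSMUSG00000034165, chromosome 17, 47505051 to 47599691, plus strand), had 166, 104, 90.3, 239 and 162 CPM in BM day 1, against 33.3, 81.6, 34.9 and 48.1 CPM in AM day 1. Every BM library was higher (1.62 ± 0.32, adjusted p = 0.00041). In BM day 3 it had 126, 70.04, 56.4 and 37.2 CPM, a fall of 1.07 ± 0.32 against BM day 1 (adjusted p = 0.017), lost without BM day 3 replicate 4. In AM day 1 it was below each of the 91.1, 103 and 103 CPM of AM day 0, with an estimate of -1.0 ± 0.35 that did not pass (adjusted p = 0.090).

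**Figure D5:**
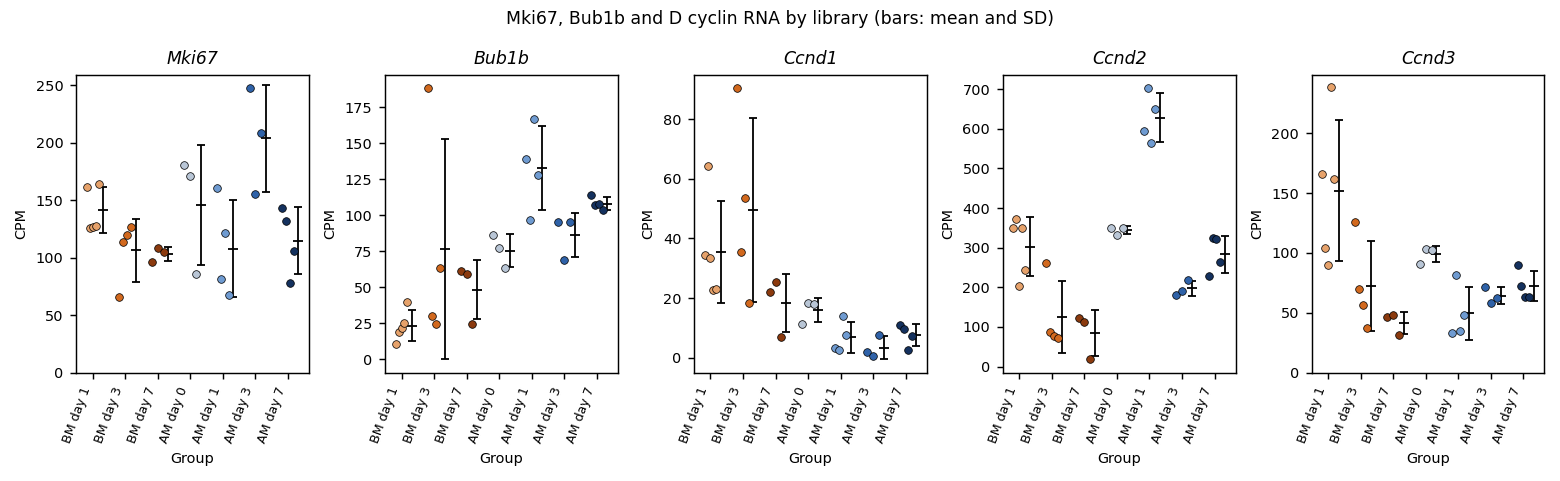
CPM of Mki67, Bub1b, Ccnd1, Ccnd2 and Ccnd3 by group; points are libraries and bars are mean and SD, and each panel has its own axis. Ccnd2 peaks in AM day 1 at 563 to 703 CPM, Bub1b is low in BM day 1 at 10.9 to 39.98 CPM, Ccnd1 is low in AM, and the highest BM day 3 point of Bub1b, Ccnd1, Ccnd2 and Ccnd3 is the same library, replicate 1.

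Genes of the cycle outside the 46 were read from lists drawn up by function. Of 40 other mitosis genes, 5 fell in AM day 1 against AM day 0 and none rose, where 3.06% of all genes fell, and every day 1 library was lower for 29, against 21.2% of all genes. Nek2, a centrosome kinase, and Kif18b, a kinesin, had 0 counts in AM day 1, against means of 8.85 and 7.11 CPM in AM day 0, so they were at least 146-fold and at least 117-fold lower with a floor of 3 counts over the group. Racgap1, which sets the cleavage site, fell by 3.83 ± 1.02 (adjusted p = 0.021) and the ring protein Anln by 3.22 ± 0.86 (adjusted p = 0.022). Of these 40 genes, 28 were higher in every AM day 3 library than in every AM day 1 library, against 8.20% of all genes, with Nek2 called and at least 166-fold higher. Of 35 other DNA replication genes, 0 were called in AM day 1 against AM day 0 by edgeR and 1 by DESeq2, with 1 at an unadjusted p under 0.05. Of all 17143 genes, edgeR called 1077 (6.28%) there, DESeq2 called 906 higher and 1145 lower, and 3588 had an unadjusted p under 0.05. Every day 1 library was lower for 10 of the 35, against 21.2% of all genes.

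Among 7 CDK inhibitors, Cdkn1a was called in 5 comparisons. Of all genes, 25.9% were called in BM day 3 against BM day 1 and 29.0% in BM day 1 against AM day 1. In each of these, 2 of the 7 were called, a share near the background. In the others, 3.98% of all genes were called (BM day 7 against BM day 3), 2.51% (AM day 3 against AM day 0) and 1.59% (AM day 7 against AM day 3). Cdkn1a, which encodes p21, averaged 625 CPM in BM day 1, 167 CPM in BM day 3 and 439 CPM in BM day 7, and fell by 1.91 ± 0.19 in BM day 3 against day 1 (adjusted p = 6.2e-08) and rose by 1.39 ± 0.20 in BM day 7 against day 3 (adjusted p = 0.00017). In resident cells it averaged 435 CPM on day 0, 295 CPM on day 1, 240 CPM on day 3 and 432 CPM on day 7, with changes of -0.86 ± 0.22 in AM day 3 against day 0 (adjusted p = 0.028) and 0.85 ± 0.21 in AM day 7 against day 3 (adjusted p = 0.029). In BM day 1 against AM day 1 it rose by 1.08 ± 0.18 (adjusted p = 5.8e-05), and Cdkn1b, the inhibitor p27, by 1.61 ± 0.35 (adjusted p = 0.0011). These were the called members among 7 CDK inhibitors in those comparisons, except that Cdkn2a was also called by edgeR in BM day 3 against day 1. Cdkn2a had 0 counts in BM day 1 and a mean of 12.1 CPM in BM day 3. The groups still overlapped, and DESeq2 gave no adjusted p for it. Of 19 RB, E2F and DREAM regulators, 0 were called in AM day 1 against AM day 0 by edgeR and 2 by DESeq2, with 4 at an unadjusted p under 0.05. Of all 17143 genes, edgeR called 1077 there, DESeq2 called 906 higher and 1145 lower, and 3588 had an unadjusted p under 0.05. In BM day 1 against AM day 1, 3 of the 19 rose, a share near the 15.2% of all genes that rose. They were Rb1 by 1.17 ± 0.24 (adjusted p = 0.00063), its relative Rbl2 by 1.00 ± 0.32 (adjusted p = 0.021) and Mybl2, which encodes B-MYB, by 4.56 ± 1.67 (adjusted p = 0.041). The groups overlapped for Rbl2 and for Mybl2. Mybl2 averaged 9.29 CPM in BM day 1 and 0.385 CPM in AM day 1, a level near 0.

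Among 9 regulators of macrophage growth, Csf1r, the receptor of the growth factor M-CSF, averaged 708 CPM in AM day 1, against 306 CPM in AM day 0 (1.21 ± 0.19, adjusted p = 8.7e-05). Of 10 p53 targets and antiproliferation genes, Gadd45a rose by 1.98 ± 0.47 in AM day 1 against AM day 0 (adjusted p = 0.0087), and Trp53inp1 fell by 2.06 ± 0.57 (adjusted p = 0.025) and Btg2 by 1.79 ± 0.28 (adjusted p = 9.7e-05). In that comparison 6.28% of all genes were called, 3.22% higher and 3.06% lower. Summed RNA of 67 replication-dependent histone genes, which lack poly(A) tails and are therefore caught only in part by this library type, was 681 to 1970 CPM in BM day 1, 46.02 to 106 CPM in BM day 3 and 189 to 235 CPM in BM day 7. In AM it was 227 to 328 CPM on day 0, 54.4 to 88.0 CPM on day 1, 69.9 to 145 CPM on day 3 and 202 to 224 CPM on day 7, so days 1 and 3 overlapped below day 0.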

How the data were processed

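Poly(A)-selected, stranded libraries were made from lung macrophage RNA, per the labels' protocols. The authors deposited raw counts, with Ensembl genes down and libraries across. The submitters' processing notes list build GRCm38, featureCounts 2.0.0, HISAT2 2.1.0, Trimmomatic 0.39 and FastQC 0.11.9; the annotation release, the strand setting and the treatment of reads shared by near-identical genes are not given in the sources used here.

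One model of these counts with a mean for each group was fitted to all 26 libraries in edgeR 4.0.16 under R 4.3.3 (TMM scaling, filterByExpr with a minimum count of 10, robust quasi-likelihood F test). For each of 11 comparisons the Benjamini-Hochberg adjustment covered 17143 genes, and calls required an adjusted p under 0.05. The SE of a log2 fold change was worked back from the F test, as the absolute log2 fold change divided by the square root of F. It is thus an approximate SE and adds no evidence beyond the p-value. DESeq2 1.42.0 was an alternative. The scripts were tested on simulated data. GENCODE M21 gave symbols for 55227 of 55487 genes.

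The members and the lists were chosen with earlier results of these data known. Any member may be named; full statistics follow for up to 4 called members per class and comparison with the largest change among those that reached 5 CPM in either group without overlap, always for Mki67, Top2a, Mcm5, Pcna and the D cyclins where a change is described, and for up to 2 genes of each other list. Members described outside that rule, such as Ccnb2, Stmn1, Rrm2 and the uncalled values of Bub1b, were chosen after their values were seen, as were Racgap1, Anln, Rbl2, Mybl2, Btg2 and Cdkn2a in the other lists. Depth limits precision: 3 counts over a group were taken as the floor for genes at 0, which covers counting error alone.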

Additional observations from a re-analysis of the deposited data

Results flagged for a closer look

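In the 4 groups of 4 or 5 libraries, 72 sets of values (15 members and 3 class sums in each group) were examined for 1 library far from the rest, and 6 were found. For normally spread values without ties, chance alone flags about 1 in 20 such sets. That rate does not hold where the other libraries tie at 0, as for Bub1 and Kif20a below. In AM day 1, replicate 4 had 0.847 CPM of Bub1 and 1.46 CPM of Kif20a, while the other 3 libraries were at 0 for both genes. BM day 1 replicate 5 had 38.5 CPM of Kif23, where the other 4 libraries had 10.2 to 16.6 CPM. BM day 1 replicate 2 had 64.3 CPM of Ccnd1, where the others had 22.5 to 34.4 CPM. BM day 3 replicate 1, the library with 27530 CPM of endothelial and fibroblast markers, had 0.0825 CPM of Kif23, where the others had 17.9 to 20.3 CPM, and 262 CPM of Ccnd2, where the others had 72.2 to 86.8 CPM. No member differed between cell types in its change between days 3 and 7 by edgeR at an adjusted p under 0.05.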

How the results depend on the processing

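Of the 25 called results of single members, 7 held under every alternative run for them and 0 reversed. Counts of called members moved by more than 1.5 times as follows. With DESeq2 they were 14 for AM day 1 against AM day 0 (6 by edgeR), 11 for AM day 3 against AM day 1 (1) and 7 for BM day 3 against BM day 1 (3). Of all 17143 genes, DESeq2 called 906 higher and 1145 lower in the first and 4.92% in the second. In the third it called 2099 higher and 2888 lower, so the members' share there is below the background. Fitting only the libraries compared gave 11 for AM day 1 against AM day 0, 6 for AM day 3 against AM day 0 (0), 22 for AM day 7 against AM day 0 (1), 5 for AM day 3 against AM day 1, 7 for AM day 7 against AM day 3 (0), 1 for BM day 3 against BM day 1, 0 for BM day 3 against AM day 3 (2) and 17 for BM day 7 against AM day 7 (1). Such a fit called 16.9% of all genes for AM day 7 against AM day 0, and 9.22% fell for BM day 7 against AM day 7. Without a filter the counts for AM day 7 against AM day 0 and for BM day 7 against AM day 7 were 0. Within 1 library-name prefix they were 4 for AM day 3 against AM day 1 and 0 for BM day 7 against AM day 7. Without BM day 1 replicate 3 and BM day 3 replicate 1 they were 18 for AM day 1 against AM day 0, 12 for AM day 3 against AM day 1, 5 for BM day 3 against BM day 1 and 19 for BM day 1 against AM day 1 (11). The share of all genes called also differed between fits, so these counts are not by themselves a result about the members. The cause of these shifts was not tested.

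Leaving out 1 library at a time gave 2 to 12 called members for AM day 1 against AM day 0, 0 to 0 for AM day 3 against AM day 0, 0 to 1 for AM day 7 against AM day 0, 0 to 6 for AM day 3 against AM day 1, 0 to 0 for AM day 7 against AM day 3, 2 to 5 for BM day 3 against BM day 1, 0 to 1 for BM day 7 against BM day 3, 6 to 13 for BM day 1 against AM day 1, 0 to 3 for BM day 3 against AM day 3, 0 to 1 for BM day 7 against AM day 7 and 0 to 1 for the test of the difference between cell types. The share of all genes called is not given for each of these fits, so these ranges are not by themselves a result about the members.

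The replicate numbers were not taken to pair the libraries: over 69 same-numbered pairs of the titles, correlations of the deviations from group means ran from -0.113 to 0.0928. With a replicate block by title number the counts were 6 for AM day 1 against AM day 0, 0 for AM day 7 against AM day 0, 1 for AM day 3 against AM day 1, 4 for BM day 3 against BM day 1, 9 for BM day 1 against AM day 1, 1 for BM day 3 against AM day 3 and 1 for BM day 7 against AM day 7. With the block by the number in the sample description they were 7 for AM day 1 against AM day 0, 4 for AM day 3 against AM day 1, 2 for BM day 3 against AM day 3 and 0 for BM day 7 against AM day 7. That block gave no value for comparisons with BM day 1, whose description numbers no other group shares. Both blocks gave 0 for AM day 3 against AM day 0, AM day 7 against AM day 3 and the test of the difference between cell types. For the fits with a block too, the share of all genes called is not given here.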
